A study of Mus musculus with 8 samples.

Results

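Autophagy is the route by which a cell wraps part of its own cytoplasm in a membrane and delivers it to lysosomes for breakdown. A kinase complex around Ulk1 starts the process, a lipid kinase complex around Becn1 marks the membrane with the lipid PI3P, and ubiquitin-like conjugation attaches the small Atg8 proteins (the LC3 and GABARAP proteins) to it. Atg4 proteases trim Atg8 proteins so that they can be attached and cut them free again, and cargo receptors tie the material to be degraded to the growing membrane. In T cells the pathway is known for clearing organelles and for supporting survival and metabolism after activation.

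The genes described here are 39 autophagy genes, of which 38 had a measured value among 19938 genes tested. Optn, a cargo receptor, was not analysed here. Members were found by gene symbol, keeping for each gene the transcript cluster with the highest mean signal. The list was drawn up with results of these arrays known and is built around Atg4c, a protease gene chosen by its difference between the genotypes. Values of the genotype comparison are therefore given for the listed genes as a description, and no test is applied to the list.

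RNA came from mouse naive CD4 T cells with a T cell-specific conditional loss of Bcl6 (Bcl6 cKO, 4 arrays) and from wild-type cells (WT, 4 arrays). RNA was isolated from all 8 samples after 24 hours of stimulation through CD3 and CD28 with antibodies, and no unstimulated sample was analysed here. Bcl6 is a transcriptional repressor that binds DNA through zinc fingers and directs follicular helper T cell differentiation. The labels carry the tag Tf0 without explaining it, and they give neither the Cre driver, the exons removed, the age nor the sex of the mice, nor whether samples came from separate animals. P-values therefore measure the spread between these samples. Values are log2 signals of Affymetrix whole-transcript arrays, so a difference of 1 is a 2-fold change, and arrays have no read depth.

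The Bcl6 signal does not check the genotype. Bcl6 read 9.05, 8.67, 8.83 and 8.40 (log2) on the Bcl6 cKO arrays, against 8.47, 8.33, 8.56 and 8.10 on the WT arrays. It was not lower in Bcl6 cKO. The log2 difference was 0.37 (95% confidence interval 0.08 to 0.67, limma, adjusted p = 0.337), with the higher mean in Bcl6 cKO. Since the removed exons are not given, this neither bears out nor contradicts the labels. All 9 markers of activated CD4 T cells measured, among them Cd3e, Cd4 and Il2ra, stood above background, taken as the 95th percentile of 1027 olfactory receptor genes (6.90 on the log2 scale). None of 6 myeloid, 3 NK cell or 1 erythroid markers did by its mean over the 8 arrays. The myeloid marker Lyz2 read 7.67 on 1 array, Bcl6 cKO replicate 2, and averaged 6.40. Of 3 B cell markers 1 stood above background (Cd79b). Both CD8 T cell markers lay above it, Cd8a barely (mean 6.98). Cd8b1 averaged 10.57 ± 0.16 in Bcl6 cKO and 11.04 ± 0.10 in WT (SD, n = 4 each), and these groups did not overlap. The part of CD8 T cells or myeloid cells in the results was not tested. Xist was high on 3 Bcl6 cKO arrays and 1 WT array, and Y-linked genes on 1 Bcl6 cKO array and 3 WT arrays, so sex and genotype were partly mixed.

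Atg4c was the autophagy gene with the largest difference in deposited signal, though both its means lay below the background threshold of 6.90, and the only 1 of the 38 past an adjusted p of 0.05 over all genes (limma), a call that the choice of this gene already used. Over all genes 44 were called, or 0.221%. It read 6.89, 7.18, 6.58 and 6.69 on the Bcl6 cKO arrays, against 5.32, 5.59, 5.46 and 6.04 on the WT arrays. Every Bcl6 cKO array was above every WT array. The log2 difference was 1.23 with a 95% confidence interval of 0.88 to 1.58. In bulk RNA, more cells with the transcript and more transcript per cell cannot be told apart.

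The signal of Atg4c was low in both genotypes. Its WT mean of 5.60 ± 0.31 lay inside the range of 3 Y-linked genes on the arrays with high Xist (4.58 to 5.83), where those genes are not transcribed. Its Bcl6 cKO mean of 6.84 ± 0.26 lay above that range but just under the 95th percentile of olfactory receptor genes, and 94.2% of these genes were dimmer in Bcl6 cKO. Of the WT mean the same share was 68.5%. One Bcl6 cKO array, replicate 2, exceeded the percentile. Its difference is therefore one between dim deposited signals, and the fold change of its RNA is not known from them.

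Atg4c was higher in Bcl6 cKO within both sexes as read from Xist, which the lack of overlap between the groups already fixed. Among the arrays with high Xist it averaged 6.82 on 3 Bcl6 cKO arrays, against 6.04 on the lone WT array. Among those with low Xist the lone Bcl6 cKO array read 6.89, against a mean of 5.46 on 3 WT arrays. The log2 differences were 0.78 and 1.43. With sex as a term in the fit the difference was 1.11 with an adjusted p of 0.0974, beside 0.0178 without the term (limma). Leaving out any 1 array gave differences of 1.12 to 1.38, and 4 of the 8 such fits kept Atg4c past the threshold (not those without Bcl6 cKO replicate 4 or WT replicates 1, 2 or 3).

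**Figure D1:**
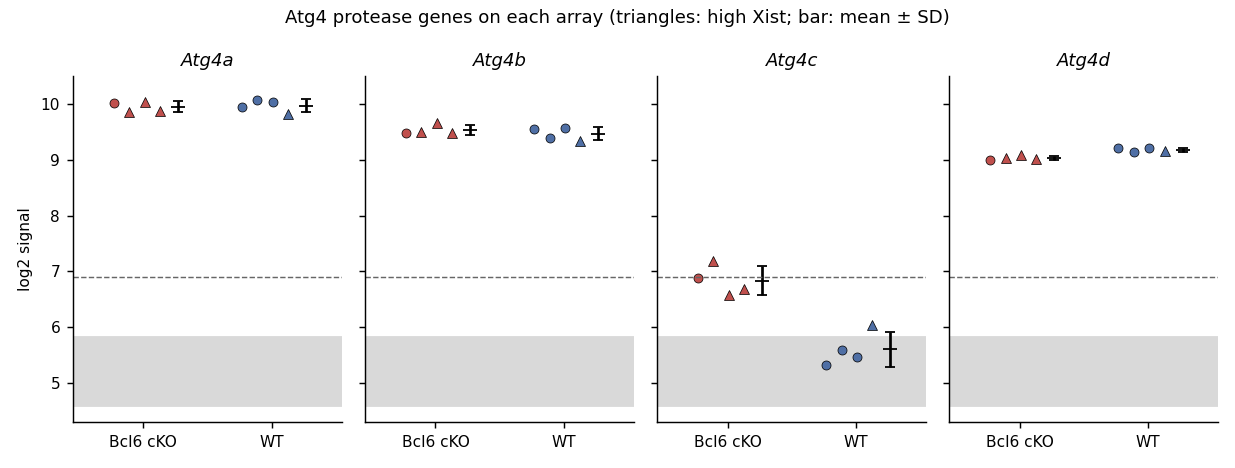
Log2 signal (vertical axis) of the Atg4 protease genes on each array, Bcl6 cKO left and WT right, with triangles for arrays with high Xist and bars for the mean ± SD (n = 4). The grey band spans Y-linked genes on arrays with high Xist (4.58 to 5.83) and the dashed line is the 95th percentile of olfactory receptor genes (6.90); only Atg4c lies near them, and its group means differ by 1.23, while its nearest arrays are 0.54 apart.

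The other Atg4 protease genes differed by at most 0.15 on the log2 scale. Atg4b, the protease known in mammals to act on most Atg8 proteins, averaged 9.54 ± 0.09 in Bcl6 cKO and 9.47 ± 0.11 in WT, and Atg4a 9.96 ± 0.10 and 9.98 ± 0.11 (log2, SD, n = 4 each). A further transcript cluster of Atg4a, a gene on the X chromosome, gave a log2 difference of -0.02, as did the main one. Atg4d read 9.00, 9.04, 9.09 and 9.01 on the Bcl6 cKO arrays, against 9.21, 9.14, 9.22 and 9.16 on the WT arrays. All Bcl6 cKO arrays lay below all WT arrays, by a log2 difference of -0.15 (95% confidence interval -0.25 to -0.04), which is opposite in sign to that of Atg4c.

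Promoter sequences of 31 of the 38 genes were at hand (RefSeq, GRCm38.p6, from 250 bases before to 50 after each start). They were searched on both strands for TTCCTAGAA, a site of the kind Bcl6 binds, for its looser form TTCCNNGAA, which includes it, and for CACGTG, the core of the site bound by Tfeb. None of the 31 genes held TTCCTAGAA, which 0.474% of all 27025 genes held. The looser form was in Gabarap and Nbr1 (6.45% of the 31, against 5.60% of all genes). CACGTG was in Atg14, Atg3, Atg5, Atg7 and Lamp1 (16.1%, against 8.09%). Neither of the overlapping Atg4c promoters held any of these motifs, which says only that the letters are not in these windows.

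The upstream Atg4c promoter (GRCm38.p6, chr4:99193684-99193983, plus strand) is shown because Atg4c is the gene with the large difference, and that of Nbr1 (chr11:101552404-101552703, plus strand) because Nbr1 had the lowest difference of the 38 and holds the looser motif, in capitals.
Atg4c: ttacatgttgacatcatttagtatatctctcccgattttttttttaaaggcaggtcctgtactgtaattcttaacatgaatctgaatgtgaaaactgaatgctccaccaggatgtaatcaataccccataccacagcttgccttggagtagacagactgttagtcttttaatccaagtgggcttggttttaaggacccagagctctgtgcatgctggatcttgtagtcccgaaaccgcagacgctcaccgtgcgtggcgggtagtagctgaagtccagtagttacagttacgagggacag
Nbr1: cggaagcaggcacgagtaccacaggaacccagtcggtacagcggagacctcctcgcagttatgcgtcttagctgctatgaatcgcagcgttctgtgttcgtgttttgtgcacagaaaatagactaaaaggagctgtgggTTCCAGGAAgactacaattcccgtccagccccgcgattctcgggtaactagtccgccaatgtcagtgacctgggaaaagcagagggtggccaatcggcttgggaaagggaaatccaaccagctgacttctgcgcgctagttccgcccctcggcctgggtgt

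Apart from Atg4c, the differences were small. Of the other 37 genes 25 were below and 11 above WT, Becn1 was level, and the log2 differences ran from -0.24 to 0.27. Over all 38 the median was -0.05, beside 0.003 over all genes and 0.005 over the 12592 genes above background. The groups did not overlap for 7 genes that were lower in Bcl6 cKO, namely Atg13, Ambra1, Atg2a, Atg4d, Map1lc3a, Sqstm1 and Epg5. That is 18.4% of the 38, beside 3.64% of all genes. For 1 gene, Atg4c, they did not overlap in the other direction (2.63%, beside 2.33% of all genes). An unadjusted p under 0.05 (limma) was found for a partly different 7 genes lower, with Ulk2 and Nbr1 in place of Ambra1 and Epg5 (beside 6.17% of all genes), and for Atg4c higher (beside 4.67%). These shares of all genes include dim genes, while 36 of the 38 lay above background. Shares among the 12592 genes above background were not computed. None of the 37 had an adjusted p under 0.05 (limma), the lowest being 0.133 for Atg2a. The typical SD within a genotype was 0.07 on the log2 scale, and the median half-width of the 95% confidence intervals 0.13.

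**Figure D2:**
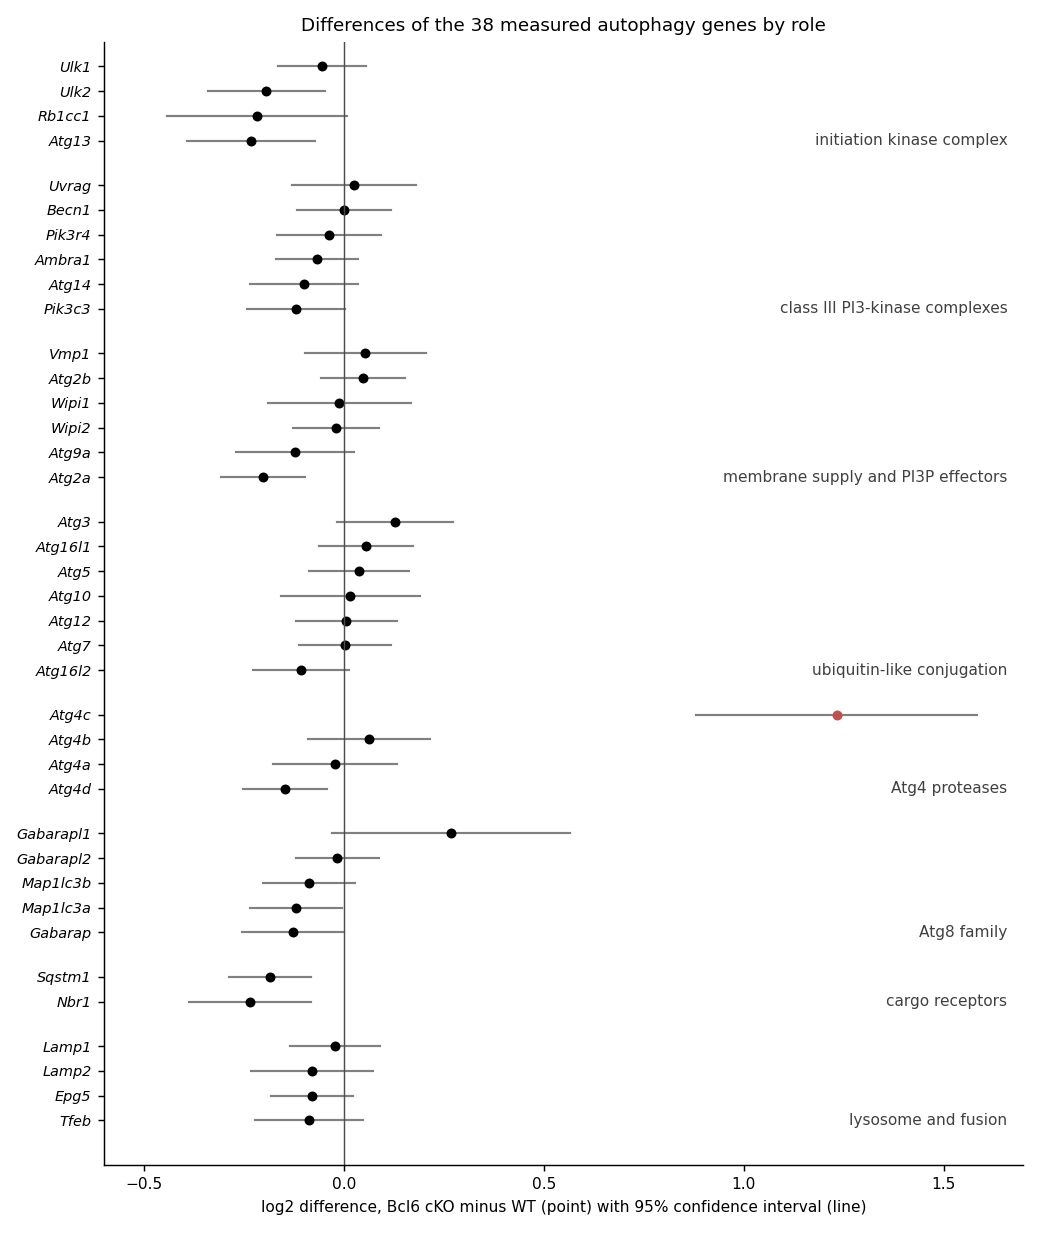
Log2 difference, Bcl6 cKO minus WT (horizontal axis), of each of the 38 genes, with its 95% confidence interval from limma as a line, grouped by role down the page. Atg4c (red, adjusted p under 0.05) stands at 1.23, and all others lie between -0.24 and 0.27.

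All 4 genes of the initiation kinase complex were below WT, by a median of -0.21. Atg13, the adaptor that links the kinase to its scaffold, read 10.45, 10.43, 10.30 and 10.46 in Bcl6 cKO, against 10.47, 10.73, 10.60 and 10.77 in WT. The groups were separate by 0.01 only, between Bcl6 cKO replicate 4 and WT replicate 1, with a difference of -0.23 (-0.39 to -0.07). Ulk2, a kinase related to Ulk1, read 8.55, 8.61, 8.60 and 8.38 in Bcl6 cKO, against 8.61, 8.78, 8.74 and 8.79 in WT. These groups touched at 8.61, and the difference was -0.20 (-0.34 to -0.05). Rb1cc1, the scaffold FIP200, differed by -0.22 (-0.44 to 0.01) with overlapping groups. Ulk1 itself differed by -0.06 (-0.16 to 0.05). With sex as a term, after median centring, after quantile normalization and with array weights all 4 stayed below WT. Among the arrays with high Xist, with a lone WT array, Ulk1 was level at 9.29 in both genotypes.

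The lipid kinase complexes differed less, with a median of -0.05 over 6 genes. Pik3c3, the catalytic subunit Vps34, read 9.73, 9.68, 9.65 and 9.58 in Bcl6 cKO, against 9.78, 9.88, 9.74 and 9.72 in WT, a difference of -0.12 (-0.24 to 0.003). Its groups overlapped through Bcl6 cKO replicate 1. Ambra1, a regulator that binds Becn1, averaged 10.57 ± 0.03 in Bcl6 cKO and 10.64 ± 0.04 in WT, with groups separate by 0.01. Atg14, which directs the complex to autophagosomes, differed by -0.10, and the regulatory subunit Pik3r4 by -0.04. Becn1 averaged 10.33 in both genotypes, with an interval of -0.12 to 0.12, and Uvrag, which takes the place of Atg14 in the complex of endosomes, differed by 0.03.

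Among the genes for membrane supply and PI3P reading, Atg2a had the largest difference and its paralog Atg2b a small one. Atg2a encodes a lipid transfer protein that feeds the growing membrane, and it read 9.37, 9.45, 9.43 and 9.34 in Bcl6 cKO, against 9.60, 9.62, 9.57 and 9.61 in WT. The highest Bcl6 cKO array was 0.12 below the lowest WT array, and the difference was -0.20 (-0.31 to -0.10), a 1.15-fold lower signal. Atg2b averaged 10.53 in Bcl6 cKO and 10.48 in WT. Its difference was 0.05 (-0.06 to 0.15), and 0.005 by a further cluster. Atg9a, the lipid scramblase carried by vesicles to the membrane, differed by -0.12, Vmp1, a scramblase of the endoplasmic reticulum, by 0.05, and the PI3P-binding Wipi2 by -0.02. Wipi1 (difference -0.01) was not above background, with a mean of 6.86.

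The conjugation machinery was nearly level between the genotypes. Of its 7 genes 6 were above WT, by 0.003 to 0.13, and the group median was 0.02. With array weights 3 of the 7 were above WT. Atg3, the enzyme that passes Atg8 proteins to the lipid, read 10.48, 10.65, 10.52 and 10.48 in Bcl6 cKO, against 10.25, 10.46, 10.43 and 10.48 in WT. The groups overlapped, and without WT replicate 1, the lowest array, the difference of 0.13 (-0.02 to 0.27) became 0.08. Atg3 is the only 1 of the 38 genes on chromosome 16, the chromosome of Bcl6, and lies 161 tested genes after it. Within 10 tested genes on each side of it, 2 were past the threshold over all genes (0.221% of all genes called). These were Slc35a5 (log2 difference -0.44) and Cd200 (0.53), opposite in sign and named only because they passed. Whether place on the chromosome matters for Atg3 was not tested. Atg5 (0.04), Atg7 (0.003), Atg12 (0.005), Atg10 (0.02) and Atg16l1 (0.06), which together attach Atg12 to Atg5 and place the complex on the membrane, had overlapping groups. Atg16l2, a paralog of Atg16l1, differed by -0.11 (-0.23 to 0.01).

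Of the 5 Atg8 family genes 4 were below WT. Map1lc3a read 7.58, 7.63, 7.48 and 7.64 in Bcl6 cKO, against 7.70, 7.67, 7.69 and 7.75 in WT. The groups were separate by 0.03, and the difference was -0.12 (-0.24 to -0.005). Map1lc3b, whose protein is the usual marker of autophagosomes, averaged 11.38 ± 0.04 in Bcl6 cKO and 11.47 ± 0.07 in WT, and its further cluster gave the same difference of -0.09. Gabarap differed by -0.13 (-0.26 to 0.001). Gabarapl2 differed by -0.02 in its brighter cluster and by -0.10 in the dimmer one.

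Gabarapl1 went the other way and was the most variable of the family. It read 9.10, 9.12, 9.32 and 9.02 in Bcl6 cKO, against 9.16, 8.78, 9.08 and 8.47 in WT. The spread was among the WT arrays (SD 0.13 in Bcl6 cKO and 0.31 in WT), and WT replicate 4 was the lowest of the 8. The difference was 0.27 (-0.03 to 0.56), and 0.13 without that array. It was 0.68 among the arrays with high Xist, where replicate 4 is the lone WT array, and 0.09 among those with low Xist.

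Both genes grouped as cargo receptors among the 38 were lower in Bcl6 cKO. Sqstm1, which binds ubiquitinated cargo and Atg8 proteins, read 11.52, 11.59, 11.51 and 11.53 in Bcl6 cKO, against 11.72, 11.67, 11.75 and 11.75 in WT. The groups were 0.08 apart at their nearest, with a difference of -0.19 (-0.29 to -0.08), a 1.14-fold lower signal. Nbr1, a receptor with a similar domain layout, read 9.86, 9.96, 9.73 and 9.68 in Bcl6 cKO, against 9.95, 10.07, 10.04 and 10.11 in WT. These groups overlapped through Bcl6 cKO replicate 2 and WT replicate 1, and the difference was -0.24 (-0.39 to -0.08), or 1.18-fold lower. Adjusted p-values over all genes (limma) were 0.163 for Sqstm1 and 0.226 for Nbr1, so neither passed.

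**Figure D3:**
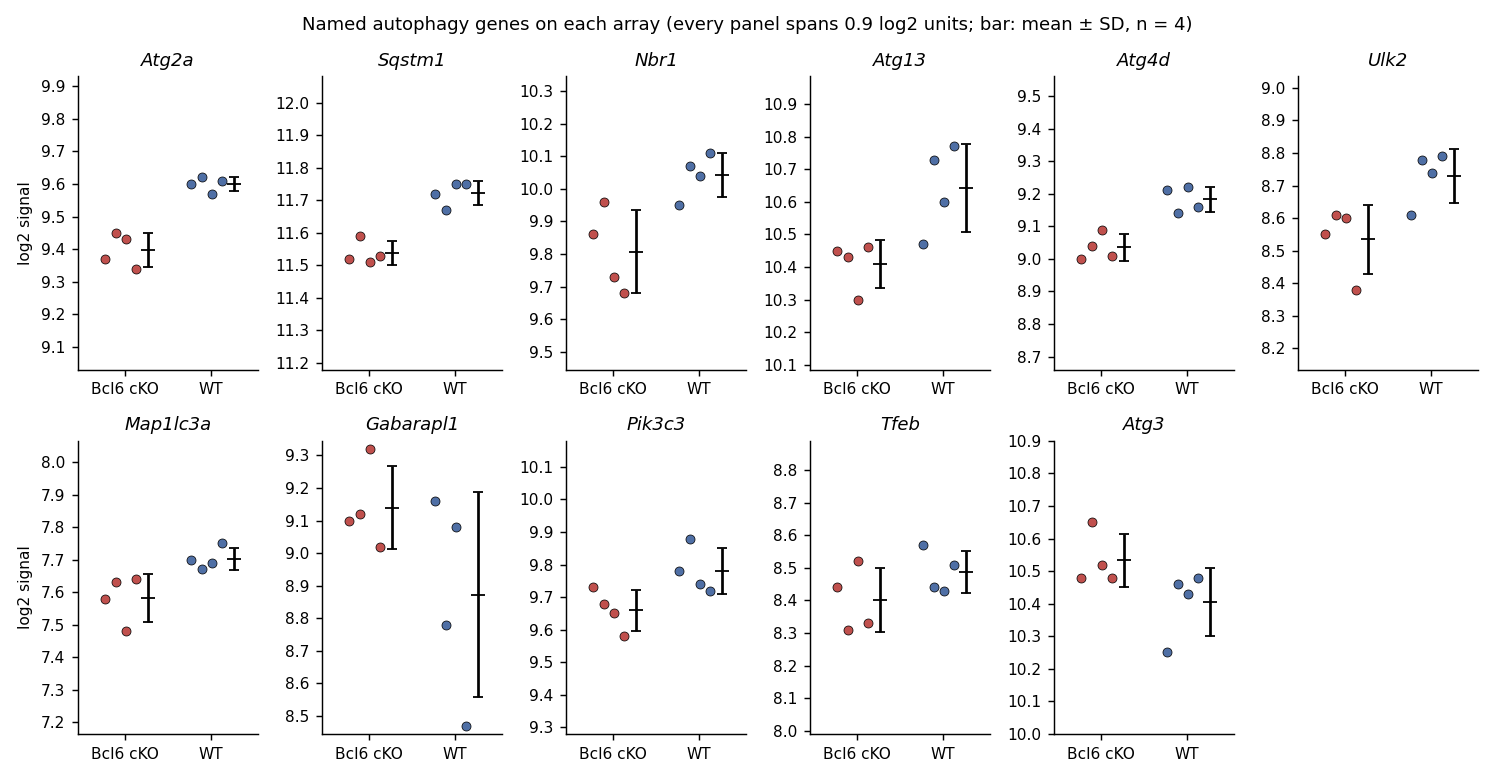
Log2 signal (vertical axis, each panel spanning 0.9 units) of 11 autophagy genes other than Atg4c on each array, Bcl6 cKO left and WT right, with bars for the mean ± SD (n = 4). Atg2a, Sqstm1, Atg13, Atg4d and Map1lc3a have separate groups, and Gabarapl1 has the widest WT spread.

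The 4 listed genes for the lysosome and fusion differed little. The 21 lysosomal hydrolase and pump genes outside the list ranged more widely, from -0.33 to 0.38 on the log2 scale. Tfeb, the transcription factor that drives lysosomal and autophagy genes, read 8.44, 8.31, 8.52 and 8.33 in Bcl6 cKO, against 8.57, 8.44, 8.43 and 8.51 in WT, with overlapping groups and a difference of -0.09 (-0.22 to 0.05). The lysosomal membrane proteins Lamp1 and Lamp2 differed by -0.02 and -0.08. Epg5, a tether for fusion with lysosomes, averaged 9.08 ± 0.04 in Bcl6 cKO and 9.16 ± 0.03 in WT, and these groups were separate by 0.01.

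**Figure D4:**
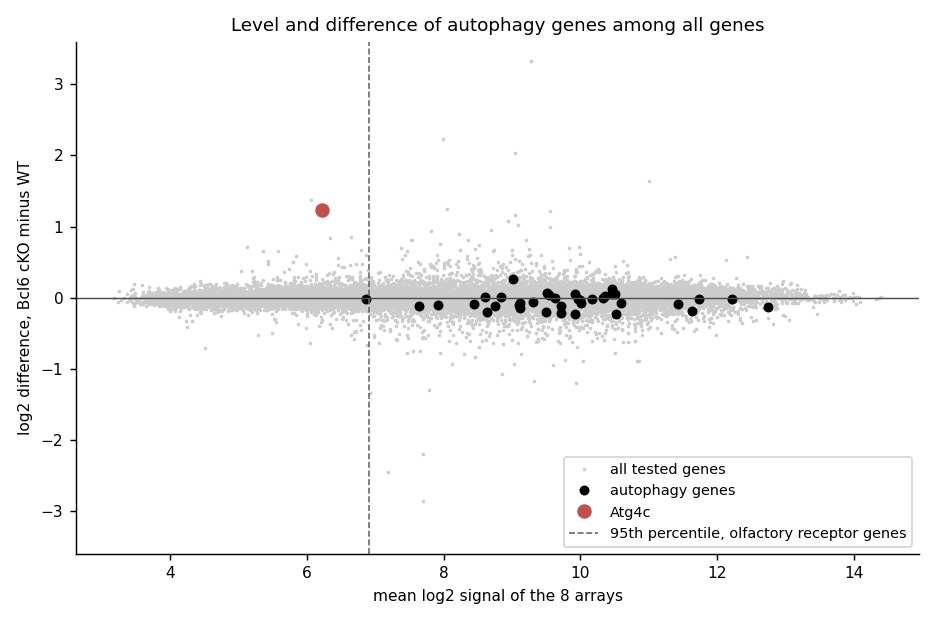
Mean log2 signal of the 8 arrays (horizontal axis) against the log2 difference, Bcl6 cKO minus WT (vertical axis), for all 19938 genes (grey), the autophagy genes (black) and Atg4c (red). Atg4c and Wipi1 lie left of the dashed line, the 95th percentile of olfactory receptor genes, and the other 36 genes lie right of it, close to 0.

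Sex was a contrast that played no part in choosing the genes. With genotype and sex in the same fit, none of the 38 genes differed between arrays with high and low Xist at an adjusted p of 0.05 (limma, 0.0301% of all genes called), and none had an unadjusted p under 0.05 (8.28% of all genes). Gabarapl1 had a difference of -0.24 between high and low Xist (95% confidence interval -0.56 to 0.08), and Atg4c of 0.26 (-0.13 to 0.64). The X-linked genes Atg4a and Lamp2 had differences of -0.15 and -0.07. Where the cluster kept for Atg4a itself maps was not checked.

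Genes of the pathway outside the list were also examined, on the same arrays and the same contrast. Their lists too were chosen with earlier results of these data known, so their shares are a description. Of 87 measured genes for other core steps, fusion, mitophagy, nutrient kinases, transcription factors and lysosomal enzymes, none passed an adjusted p of 0.05 in limma (0.221% of all genes). At an unadjusted p under 0.05 in limma, 15 were lower (17.2%, beside 6.17% of all genes) and 5 higher (5.75%, beside 4.67%). The shares of all genes include dim genes, and shares among genes above background were not computed. The median log2 difference was -0.02, and 56 genes were below WT. With variance moderation by trend and robust options 2 of the 87 passed, Tecpr1 and Nfe2l2, and Tecpr1 alone passed with array weights, after the filter on dim genes and without Bcl6 cKO replicate 1.

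Tecpr1, which binds the Atg12 and Atg5 conjugate and helps autophagosomes meet lysosomes, had the lowest p of these genes. It read 9.42, 9.33, 9.15 and 9.06 in Bcl6 cKO, against 9.63, 9.81, 9.69 and 9.95 in WT. The groups were separate, with a log2 difference of -0.53 (-0.73 to -0.33) that just missed the threshold (limma, adjusted p = 0.0541). With sex as a term the difference was also -0.53 (limma, adjusted p = 0.197). It was -0.77 among the arrays with high Xist, where WT replicate 4 (9.95) is the lone WT array. Among those with low Xist, with a lone Bcl6 cKO array, it was -0.29. Nfe2l2 encodes the oxidative stress factor NRF2, for which Sqstm1 is a known target gene. It read 10.65, 10.70, 10.59 and 10.61 in Bcl6 cKO, against 10.80, 11.00, 10.93 and 11.00 in WT, with separate groups and a difference of -0.30 (-0.42 to -0.17; limma, adjusted p = 0.079).

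In the other direction the lowest p-values were those of Cd63 and Tmem41b. Cd63, a lysosomal tetraspanin, averaged 5.22 ± 0.17 in Bcl6 cKO and 4.85 ± 0.12 in WT (n = 4 each), below background in both (limma, adjusted p = 0.141). Tmem41b, a scramblase that works with Vmp1, averaged 11.37 ± 0.07 in Bcl6 cKO and 11.22 ± 0.03 in WT (limma, adjusted p = 0.286). Their groups did not overlap, and neither passed the threshold. By list, the median differences ran from -0.06 for the transcription factors to -0.008 for mitophagy genes.

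**Figure D5:**
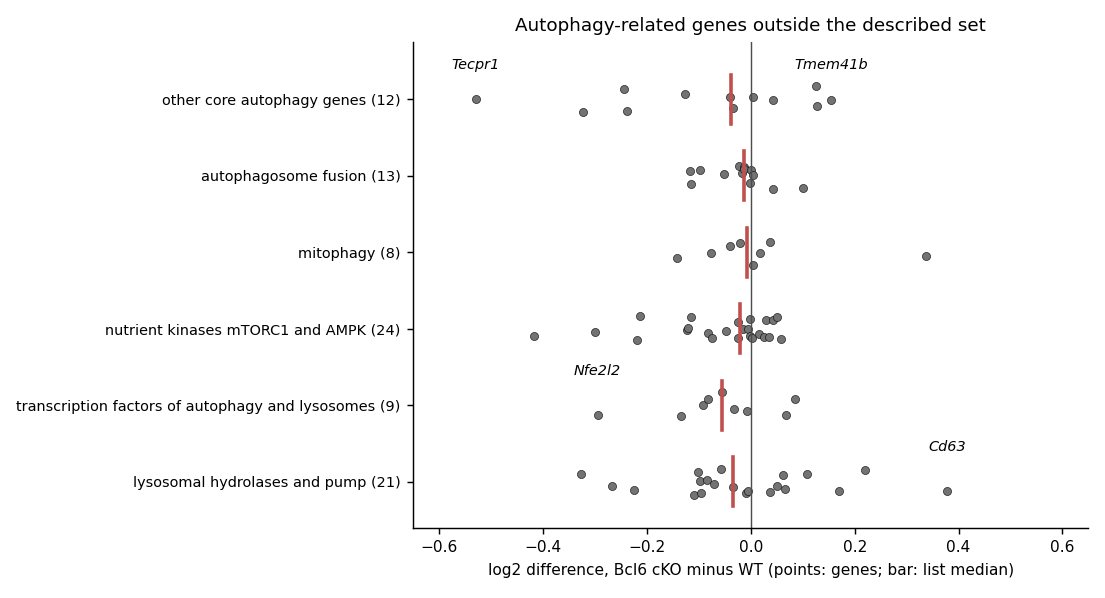
Log2 difference, Bcl6 cKO minus WT (horizontal axis), of 87 autophagy-related genes outside the described set, by list (number of genes in brackets), with a red bar for each list median. The named genes have the lowest p in each direction, Tecpr1 (-0.53) and Nfe2l2 (-0.30) below WT and Cd63 (0.38) and Tmem41b (0.16) above, and no gene passed an adjusted p of 0.05 in limma.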

How the data were processed

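The authors deposited log2 signals for 35556 transcript clusters on 8 arrays. The tools named are RMA and Partek, per the submitters' processing notes, with versions and genome build not given in the sources used here. RMA corrects background, gives all arrays 1 distribution and merges the probes of a cluster, which can shrink differences of dim genes. Values of this size are log2, the scale RMA gives. The platform annotation gives 21789 clusters 1 symbol. The cluster with the highest mean was kept per gene, 19938 genes in all, and 4 of the 38 autophagy genes had a further cluster. Chromosomes are those of the genes, and where each cluster maps in the genome was not checked.

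All 8 arrays entered a linear model without covariates (R 4.3.3, limma 3.58.1, lmFit then eBayes), as Bcl6 cKO minus WT. Benjamini-Hochberg adjustment ran over the 19938 genes, unfiltered, with a threshold of 0.05. Sex was read from Xist and Y-linked genes and used as a term in a further fit. The fit was tested on simulated arrays with independent random noise for each gene. These held no sex difference, pairing or weaker array, so they do not check such features. Replicate numbers were not used as a block, since the labels do not say what they share and 1 of the 4 same-numbered pairs did not deviate together.

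The genes and lists were chosen with earlier results of these data known. Values per array are given for Atg4c, for members with an unadjusted p under 0.05, and for the member with the largest difference in each role group. Of the further lists, the 2 genes with the lowest p in each direction are named. The other settings tried are in the closing section. The number of arrays limits the precision.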

Additional observations from a re-analysis of the deposited data

Results flagged for a closer look

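Of the 76 groups of 4 arrays (38 genes in each genotype), 4 held an array far from the other 3 by Dixon's criterion, where chance flags about 1 in 20. All 4 were in Bcl6 cKO. Ambra1 read 10.52 on Bcl6 cKO replicate 1, against 10.58 to 10.59 on the others. Atg5 read 9.62 and Atg4b 9.67 on Bcl6 cKO replicate 3, against 9.53 to 9.54 and 9.48 to 9.51 on the others. Lamp2 read 9.78 on Bcl6 cKO replicate 4, and the others lay above it, up to 10.04.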

How the results depend on the processing

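The number of genes called over the whole table, 44 (21 higher and 23 lower in Bcl6 cKO), moved most. The split was 19 and 13 after median centring and 22 and 14 after quantile normalization. It was 91 with trend and robust options, 80 with array weights, 67 after the filter at the 30th percentile, 10 with sex as a term, 0 within either sex alone, and 11 to 139 without 1 array. Atg4c was the 1 autophagy gene called; the count was 0 with sex as a term, within either sex and after the filter, which removes Atg4c, and 0 to 1 without 1 array (0 without Bcl6 cKO replicate 4 or WT replicates 1, 2 or 3). No other autophagy gene was called in any of the 18 settings. The Atg4c difference, 1.23, was 0.78 among the arrays with high Xist, where WT replicate 4 is the lone WT array, and 1.11 to 1.43 elsewhere. In the fit with array weights, WT replicate 4 had the lowest weight of all arrays, 0.37. Of the further 87 genes, 0 were called as reported, 1 with array weights, 1 after the filter, 2 with trend and robust options, and 0 to 1 without 1 array. The 11 other autophagy genes given by array kept their sign in all 198 comparisons with other settings. They were picked by these same differences or their p-values, so their signs were likely to hold. Some settings, such as the replicate block or trend and robust options, cannot change a difference at all. The median of the autophagy genes ran from -0.07 to -0.007. Deviations of same-numbered arrays correlated at 0.07 for number 1 and 0.20 to 0.21 for the other 3, which matched their own number best. This is a hint of pairing in the data for those 3 numbers, but not for all 4, and the labels state none. With the replicate block 35 genes were called in all, Atg4c among them (adjusted p = 0.0302, limma). With 4 arrays a genotype, differences under about 0.13 were within the confidence intervals.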
